A study of Bos taurus with 10 samples.

Results

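The genes described here are 40 genes of the cell cycle and of DNA replication, measured in the liver of dairy cows. They were chosen by symbol, and a gene counted as measured where a probe set of the array carried that symbol and no other. By this rule 33 of the 40 genes were measured, by 47 of the 24016 probe sets tested. No probe set carried the symbols of 7 genes (MKI67, TOP2A, KIF11, PTTG1, MCM2, GINS2 and CDKN3), so the familiar proliferation marker MKI67 is not part of the values below. The 33 genes comprised 17 of 21 genes of mitosis, 13 of 15 of replication and 3 of 4 regulators of the cycle.

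All samples were liver biopsies of Holstein cows in week 5 of lactation, a time of high metabolic load on the liver. The treated group of 20 cows was fed conjugated linoleic acids (CLA), isomers of linoleic acid whose double bonds are conjugated, in a fat protected from the rumen, and the control group of 20 cows a protected control fat. Fat made up 27.3% of a supplemental concentrate fed at 630 g of dry matter daily, from week 3 prepartum until week 14 postpartum, beside a mixed ration that was identical in both groups. Mean parity was 2.6. RNA of 4 cows was combined into each of 5 CLA pools and 5 control pools, and each pool was hybridized to 1 Affymetrix bovine array, so a value describes a mixture of 4 animals and the spread between single cows cannot be seen.

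Most cells of an adult liver are hepatocytes at rest outside the cell cycle. A cell that enters the cycle first loads the MCM helicase onto replication origins and raises its supply of deoxynucleotides, then copies its DNA behind the sliding clamp PCNA. It then makes cyclin B and its kinase CDK1, the spindle proteins and the checkpoint kinases of mitosis, whose transcripts are present mainly in dividing cells. In a whole biopsy such transcripts can come from hepatocytes or from lymphocytes, macrophages and other cells, and fewer cells of a type cannot be told apart from less RNA per cell.

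The 10 arrays had medians of 5.79 to 5.85 on the log2 scale, and any pair of arrays correlated at 0.988 to 0.996 across probe sets. CLA pool 2 and control pool 4 were the arrays least like the others. Markers of hepatocytes were bright in every pool (mean log2 level of 11 genes from 12.8 to 13.0), and the label of the tissue was liver. Across all probe sets the median difference, CLA minus control, was -0.018 on the log2 scale, and 55.9% of probe sets had a difference below 0. This share depended on brightness: with the probe sets in 3 equal parts, it was 66.0% in the dimmest, 58.1% in the middle and 43.4% in the brightest part.

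None of the 33 genes differed between the groups by a test corrected for the whole array. Limma's moderated test with Benjamini-Hochberg adjustment called 0 of 24016 probe sets (0% at an adjusted p under 0.05, with 2135 or 8.89% at an unadjusted p under 0.05), and adjusted p of the 33 genes, each at its brightest probe set, lay between 0.475 and 0.993. Without adjustment, 2 of the 33 genes were lower in the CLA pools at a p under 0.05 and 0 were higher. The background of that rule was 4.88% of all probe sets lower and 4.01% higher, and 2 of 33 is 6.06%, so this count lies near the background. The unmoderated test gave 3 lower. Differences were below 0 for 24 of the 33 genes (72.7%) and their median was -0.13, beside 55.9% and -0.018 over all probe sets. Over 9155 genes, each also at its brightest probe set, the share was 53.2% and the median -0.01. The direction of the 33 genes was that of the mitosis and replication genes, while 2 of 3 regulators had positive differences. The groups overlapped for every one of the 47 member probe sets, where 0.791% of all probe sets had CLA pools all below the control pools and 1.18% all above.

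**Figure D1:**
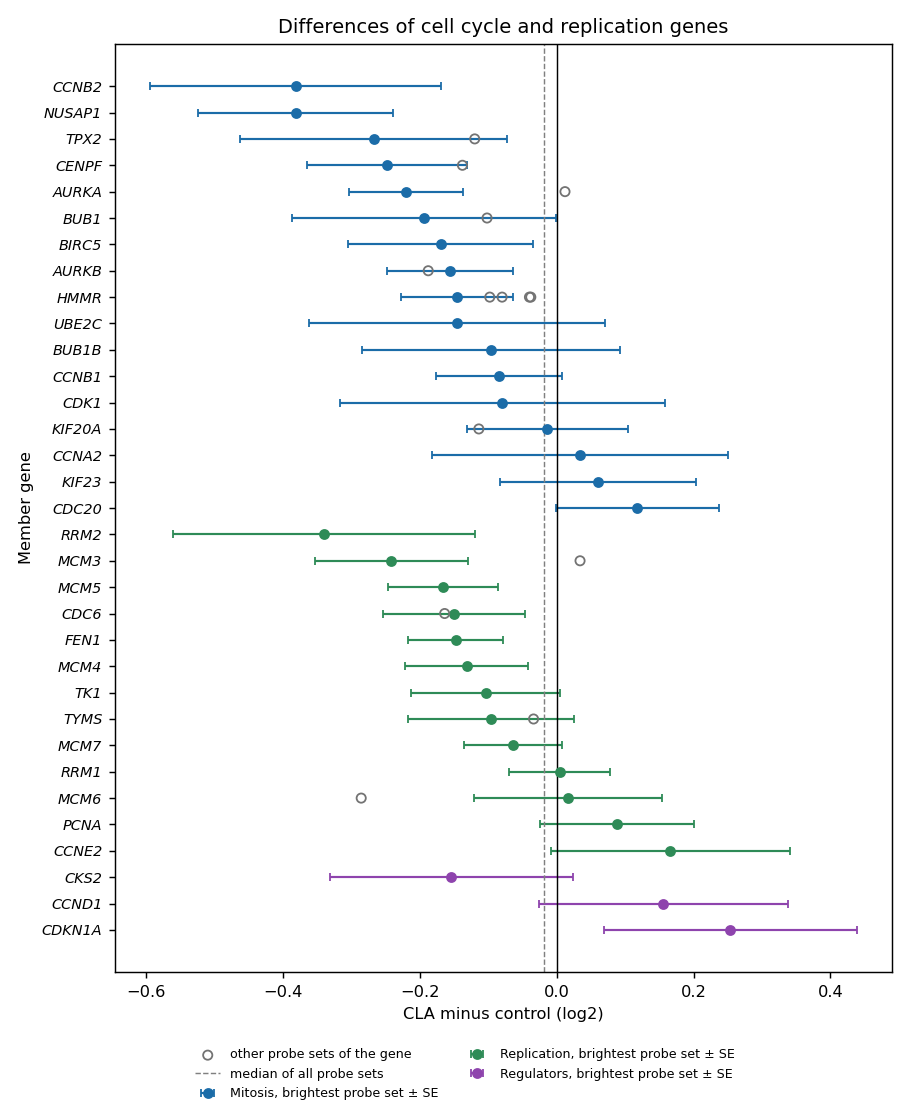
Difference between CLA and control pools (log2) for each of the 33 measured genes, by role. Filled points with bars show the brightest probe set ± SE (n = 5 pools a group), open points the gene's other probe sets, and the dashed line the median of all probe sets (-0.018). Most points of mitosis and replication lie left of 0, from -0.38 for CCNB2 and NUSAP1 to 0.17 for CCNE2, and no gene passed the adjusted test.

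Among the 17 mitosis genes 14 had a difference below 0 and 3 above, with a median of -0.15 and a range of -0.38 to 0.12. NUSAP1 and AURKA were the 2 that reached an unadjusted p under 0.05. The probe sets of these 17 genes had control means from 3.68 to 8.11, and 5 of the 17 lay in the dimmest 30% of all probe sets (CCNA2, CCNB1, CCNB2, BUB1 and BUB1B).

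NUSAP1 encodes a protein that binds and bundles microtubules of the spindle. Its values in control pools 1 to 5 were 5.32, 5.80, 5.32, 5.07 and 5.60, and those in CLA pools 1 to 5 were 4.90, 5.36, 5.16, 5.00 and 4.78. All 5 CLA pools lay below the control mean, but CLA pools 2 and 3 lay above control pool 4, so the groups overlapped. The difference was -0.38 ± 0.14 SE, or 1.30-fold lower in CLA, with an adjusted p of 0.475 in limma. Its 95% interval ran from -0.69 to -0.07.

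AURKA, a kinase that matures the centrosome and builds the spindle, had control values of 6.17, 6.33, 6.22, 6.31 and 6.58 and CLA values of 6.17, 6.14, 6.09, 5.98 and 6.13. The groups touched only where CLA pool 1 equalled control pool 1, and control pool 5 stood highest. The difference was -0.22 ± 0.08 SE, or 1.16-fold lower (limma's adjusted p = 0.485). AURKA's second probe set, in the dim part of the array, differed by 0.01 ± 0.12 SE.

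CENPF, a large protein of the kinetochore, had control values of 5.15, 5.35, 4.94, 4.99 and 5.30 and CLA values of 4.80, 5.17, 5.08, 4.80 and 4.64. CLA pools 1, 4 and 5 lay below every control pool and CLA pools 2 and 3 lay among them. The difference was -0.25 ± 0.12 SE (limma's adjusted p = 0.568), and the second probe set differed by -0.14.

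CCNB2 encodes cyclin B2, an activator of CDK1 at the entry into mitosis. Control values were 4.70, 4.91, 4.28, 4.27 and 4.48, and CLA values 3.61, 4.90, 4.18, 3.81 and 4.23. CLA pools 1, 3, 4 and 5 lay below the lowest control pool, and CLA pool 2 lay just under the highest. The difference of -0.38 ± 0.21 SE was within the spread between pools (limma's adjusted p = 0.634), and its interval ran from -0.84 to 0.08. Without CLA pool 2 it was -0.57, and without CLA pool 1 -0.25. The other B-type cyclin, CCNB1, differed by -0.08 ± 0.09 SE, and their kinase CDK1 by -0.08 ± 0.24 SE.

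**Figure D2:**
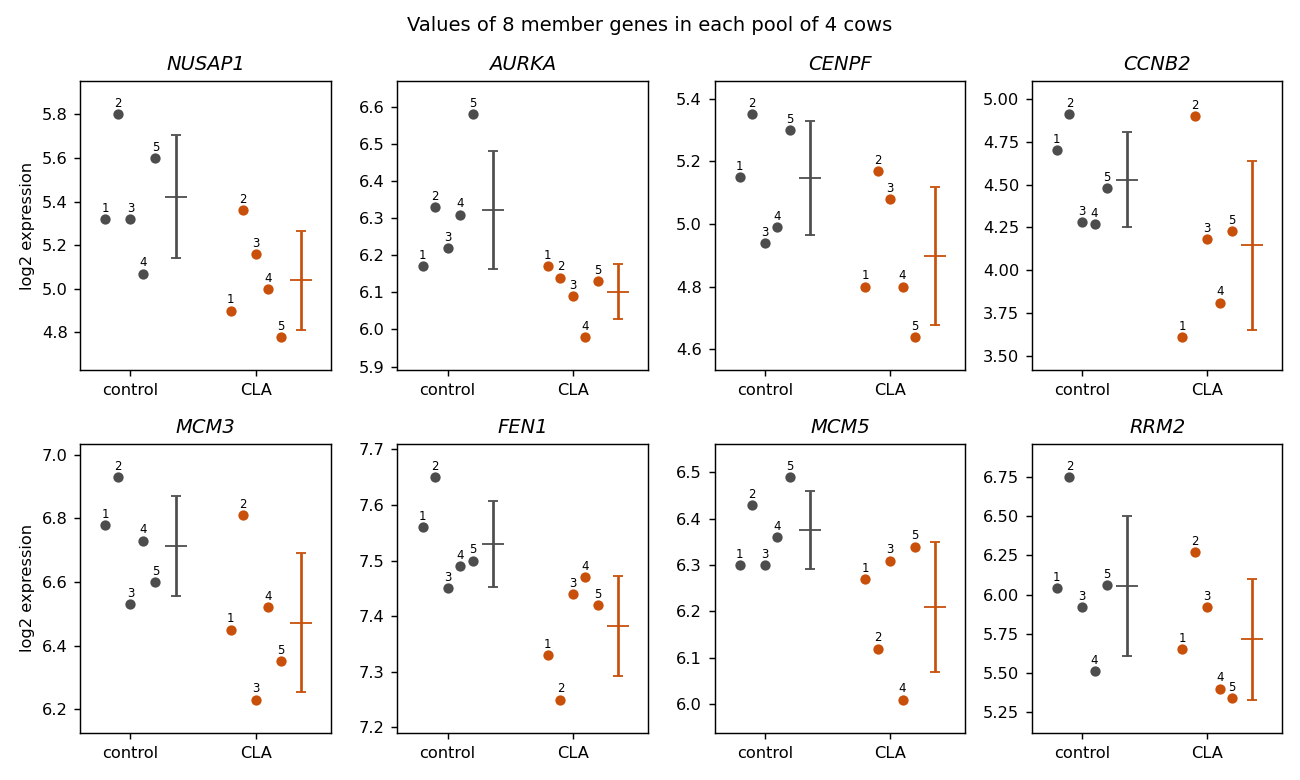
Log2 expression of 8 genes in each pool of 4 cows, with the pool number beside each point and the mean ± SD (n = 5) at the right of each group; axes differ between panels and do not start at 0. The upper row shows the 4 mitosis genes of smallest p and the lower row the 4 replication genes of smallest p. In each of these selected panels the CLA mean lies below the control mean while the groups touch or overlap. The 3 of 17 mitosis and 4 of 13 replication genes with a difference above 0 are not shown.

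The checkpoint and spindle genes had smaller or more variable differences. TPX2, which activates AURKA on the spindle, differed by -0.27 ± 0.20 SE, with CLA pools 4 and 5 at 5.84 and 5.91, control pools from 6.40 to 7.02 and CLA pool 2 at 6.92. BUB1 and BUB1B, kinases of the spindle checkpoint, differed by -0.19 ± 0.19 SE and -0.10 ± 0.19 SE. BIRC5 and AURKB, subunits of the chromosomal passenger complex, differed by -0.17 ± 0.14 SE and -0.16 ± 0.09 SE, and all 5 CLA pools lay below the control mean of AURKB. HMMR, a spindle protein and hyaluronan receptor, differed by -0.15 ± 0.08 SE, also with 5 of 5 CLA pools below the control mean. UBE2C, the ubiquitin-conjugating enzyme of the anaphase-promoting complex, differed by -0.15 ± 0.22 SE, and CDC20, an activator of that complex, by 0.12 ± 0.12 SE. CCNA2, the cyclin of S phase and early mitosis, differed by 0.03 ± 0.22 SE. Among the motor proteins KIF20A and KIF23, which act in cytokinesis, the differences were -0.01 ± 0.12 SE and 0.06 ± 0.14 SE. Several of these values moved with single pools. Without CLA pool 2, CDC20 differed by 0.0075 and CCNA2 by -0.16. Without CLA pool 4, BUB1B differed by -0.01, UBE2C by -0.02, BIRC5 by -0.07 and TPX2 by -0.15, and BUB1 differed by -0.08 without control pool 2. These genes lay farther below 0 without CLA pool 2: BUB1B at -0.28, UBE2C at -0.31, BIRC5 at -0.26, TPX2 at -0.42 and BUB1 at -0.37. Adjusted p in limma was at least 0.640 for each gene of this paragraph.

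The median of the mitosis genes moved with single pools. With single pools left out it was -0.26 (CLA pool 2), -0.07 (CLA pool 4) and -0.08 (control pool 2), and its sign was the same without any 1 pool. Without CLA pool 2, 8 of the 33 member genes were lower at an unadjusted p under 0.05 (NUSAP1, AURKA, CCNB2, BUB1, TPX2, CENPF, MCM3 and RRM2). Omitting control pool 3 gave a count of 5, control pool 4 also 5 and CLA pool 3 gave 4, while omitting control pool 2 left AURKA alone. The share of all probe sets lower at that p was not counted with a pool left out. The background of 4.88% is that of all 10 pools, so these counts cannot be set against it.

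Among the 13 replication genes 9 had a difference below 0 and 4 above, with a median of -0.10 and a range of -0.34 to 0.17. None reached an unadjusted p under 0.05 at its brightest probe set (0 lower, against the background of 4.88%). Their control means ran from 4.98 to 9.23 and none lay in the dimmest 30%.

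The MCM2 to MCM7 proteins form the ring-shaped helicase that opens DNA at the fork. MCM3 had control values of 6.78, 6.93, 6.53, 6.73 and 6.60 and CLA values of 6.45, 6.81, 6.23, 6.52 and 6.35. CLA pools 1, 3, 4 and 5 lay below every control pool, with CLA pool 4 only 0.01 under the lowest, and CLA pool 2 lay above 4 of the control pools. The difference was -0.24 ± 0.11 SE (limma's adjusted p = 0.562), and the second probe set of MCM3 differed by 0.03 ± 0.10 SE.

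MCM5 had control values of 6.30, 6.43, 6.30, 6.36 and 6.49 and CLA values of 6.27, 6.12, 6.31, 6.01 and 6.34. CLA pools 1, 2 and 4 lay below all control pools, and the difference was -0.17 ± 0.08 SE (limma's adjusted p = 0.574). MCM4 differed by -0.13 ± 0.09 SE, with 5 of 5 CLA pools below the control mean, and MCM7 by -0.06 ± 0.07 SE. The brightest probe set of MCM6 had a difference of 0.02 ± 0.14 SE. Its second probe set, at brightness percentile 15.5, differed by -0.29 ± 0.09 SE and joined NUSAP1 and AURKA as a member probe set with an unadjusted p under 0.05 (limma's adjusted p = 0.418). The helicase subunits therefore had 4 differences below 0 and 1 near 0 at their brightest probe sets, and 2 of them had a second probe set that did not agree.

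FEN1, the nuclease that trims the flaps of Okazaki fragments, had control values of 7.56, 7.65, 7.45, 7.49 and 7.50 and CLA values of 7.33, 7.25, 7.44, 7.47 and 7.42. All CLA pools lay below the control mean and only CLA pool 4 lay above the lowest control pool. The difference was -0.15 ± 0.07 SE (limma's adjusted p = 0.568), with the smallest SE among the replication genes.

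RRM2, the small subunit of ribonucleotide reductase that limits deoxynucleotide supply, had control values of 6.04, 6.75, 5.92, 5.51 and 6.06 and CLA values of 5.65, 6.27, 5.92, 5.40 and 5.34. Control pool 2 stood high and control pool 4 low, so the control pools alone spanned more than the difference of -0.34 ± 0.22 SE (limma's adjusted p = 0.696). It was -0.17 without control pool 2 and -0.48 without CLA pool 2. The large subunit RRM1, which is also made outside S phase, differed by 0.00 ± 0.07 SE, with an interval of -0.16 to 0.16. TYMS and TK1, enzymes that supply thymidylate, differed by -0.10 ± 0.12 SE and -0.10 ± 0.11 SE.

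CDC6, which loads the helicase onto origins, had differences of -0.15 ± 0.10 SE (brightest probe set) and -0.16 (the other). PCNA differed by 0.09 ± 0.11 SE, with CLA pool 2 at 8.54 and the other CLA pools from 7.89 to 8.13. CCNE2, a cyclin of the entry into S phase, differed by 0.17 ± 0.17 SE, with CLA pool 2 at 6.57 and the other CLA pools from 5.46 to 6.03. Without CLA pool 2 PCNA differed by -0.02 and CCNE2 by 0.01, so both positive differences rested on that pool.

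Of the regulators, CDKN1A (p21), an inhibitor of cyclin-dependent kinases, had control values of 7.64, 7.37, 7.67, 7.69 and 7.48 and CLA values of 7.31, 8.54, 7.60, 7.68 and 7.99. CLA pools 2 and 5 lay above every control pool and the other 3 lay among or below them. The difference was 0.25 ± 0.19 SE (limma's adjusted p = 0.731), 0.075 without CLA pool 2 and 0.38 without CLA pool 1.

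CCND1, cyclin D1, which links growth signals to the cycle, had control values of 5.17, 6.06, 5.79, 4.99 and 5.63 and CLA values of 5.97, 5.72, 5.70, 5.53 and 5.50. The control pools spread from 4.99 to 6.06 and enclosed all CLA pools. The difference was 0.16 ± 0.18 SE (limma's adjusted p = 0.845), 0.02 without control pool 4 and 0.29 without control pool 2.

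CKS2, a small subunit of cyclin-dependent kinases, had control values of 6.11, 6.96, 6.53, 6.08 and 6.47 and CLA values of 6.20, 6.62, 6.56, 6.03 and 5.97. The groups overlapped over most of their range, and the difference was -0.15 ± 0.18 SE (limma's adjusted p = 0.843). It was -0.02 without control pool 2 and -0.24 without control pool 4.

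Agreement between probe sets of a gene was limited. Of the 33 genes 22 had 1 probe set and 11 had more, with 14 further probe sets among them, 13 of which lay in the dimmest 30% of the array. Of these 14, 12 had a difference below 0 and 11 had the sign of the gene's brightest probe set. The exceptions were AURKA, MCM3 and MCM6. With group means removed, the median correlation of a further probe set with the brightest one over the 10 pools was 0.048, and 8 of 14 were above 0. The best pair was AURKB, whose probe sets correlated at 0.729 and differed by -0.16 and -0.19, and the 4 further probe sets of HMMR correlated at -0.54 to 0.07 with its brightest. The low signal of the further probe sets is a measured fact beside this, and its part in the disagreement was not tested.

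Between pools of the same group the mitosis genes varied together. With group means removed, the median correlation over the 136 pairs of mitosis genes was 0.44 (median Spearman's rho 0.42) and 80.9% of pairs were above 0, beside a median of 0.03 and 52.8% over all pairs of 9155 genes. Without CLA pools 2 and 4, whose mitosis level lay farthest from the median, it was 0.26 (0.21), beside 0.01. Pairs of replication genes had a median of 0.20 (0.13), and pairs of a mitosis with a replication gene 0.23 (0.23). These are descriptions over 10 pools that share the same arrays.

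Within the mitosis genes BUB1B followed the mean of the other 16 most closely (r = 0.97), followed by BUB1 (0.89), UBE2C (0.85), CDK1 (0.85) and CCNB2 (0.85). These genes also had a wide spread within groups, with SDs from 0.35 for BUB1B to 0.45 for CDK1, where the median SD was 0.26 for mitosis genes, 0.18 for replication genes and 0.15 for all 9155 genes. CCNA2 (SD 0.41) and TPX2 (SD 0.37) also spread widely but stood at 0.67 and 0.76. The mean of the others was taken over unscaled values, so genes of wide spread weighed more in it. AURKA, HMMR and AURKB followed the others loosely (0.29, 0.25 and 0.14) and had SDs of 0.12 to 0.14. KIF23 ran the other way (r = -0.66, and -0.60 without CLA pools 2 and 4). Its values were 8.23, 7.96, 8.13, 8.20 and 8.03 in the control pools and 8.62, 7.90, 7.75, 8.32 and 8.26 in the CLA pools, so CLA pool 2, high for most mitosis genes, was among the lowest for KIF23. Among replication genes RRM2 (0.84), MCM6 (0.78) and PCNA (0.76) followed the rest of their role most closely and FEN1 (-0.09) and CDC6 (-0.29) did not. Some of these values rested on CLA pools 2 and 4: without them FEN1 stood at 0.76 and CDC6 at 0.14, and CCNA2, at 0.67 with all pools, at 0.02. Of the genes with an unadjusted p under 0.05, AURKA had a small SD, whereas NUSAP1 had an SD of 0.26 and followed the other mitosis genes at 0.78, and at 0.89 without CLA pools 2 and 4. The within-group SDs of CDK1 and BUB1B were larger than their differences between groups.

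**Figure D3:**
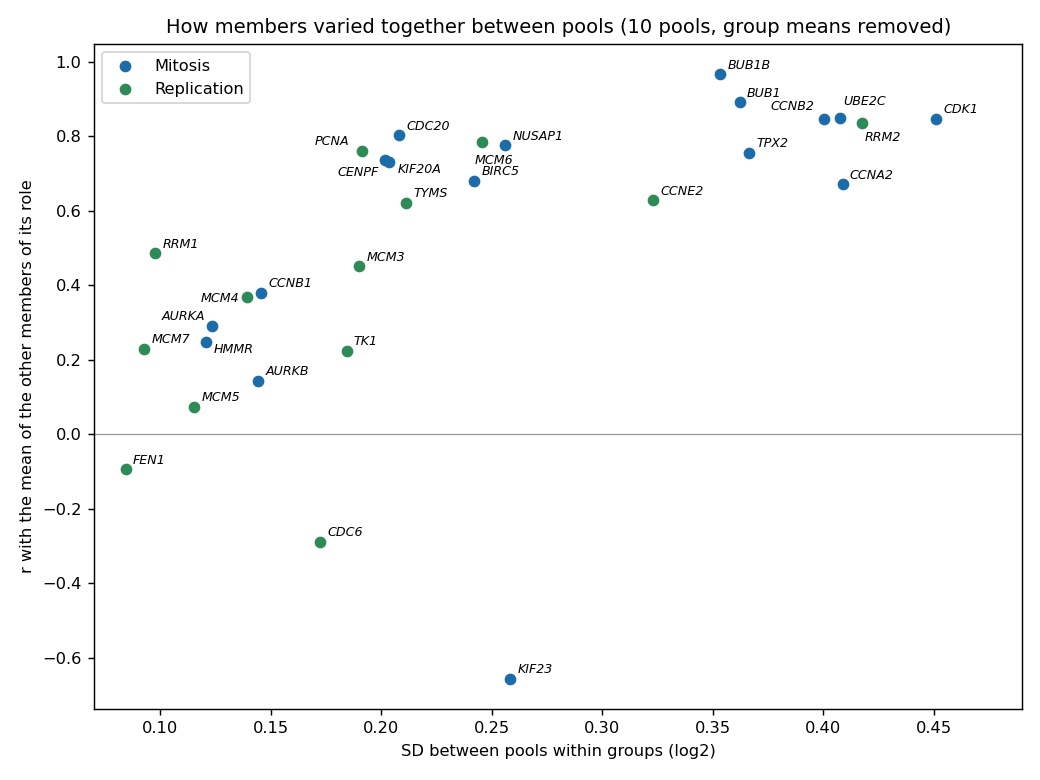
For each of 30 mitosis and replication genes, the SD between pools within groups (log2, horizontal) and the correlation with the mean of the other genes of its role over 10 pools with group means removed (vertical). CDK1, CCNB2, UBE2C and RRM2, of wide spread, lie at 0.84 to 0.85, CCNA2 and TPX2, also of wide spread, at 0.67 and 0.76, and KIF23 apart at -0.66. The mean is of unscaled values, so genes of wide spread weigh more in it.

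The pools that carried this common variation were few. The level of the mitosis genes in a pool, as the mean over 17 genes of the log2 value minus the gene's mean over 10 pools, was 0.06, 0.23, 0.04, -0.14 and 0.15 in control pools 1 to 5 and -0.18, 0.32, -0.08, -0.29 and -0.12 in CLA pools 1 to 5. CLA pool 2 had the highest level of all 10 and CLA pools 1 and 4 the lowest. CLA pool 2 was the highest CLA pool for 13 of 17 mitosis genes, and CLA pool 4 was the lowest of all pools for 10 of 17. The difference between group means, -0.14, was smaller than the SD between CLA pools (0.23) and equal in size to that between control pools (0.14, n = 5 each).

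The replication genes gave -0.0045, 0.23, 0.03, -0.03 and -0.0022 in the control pools and -0.10, 0.13, -0.0014, -0.17 and -0.08 in the CLA pools. Control pool 2 and CLA pool 2 were again the highest of their groups, and control pool 2 was the highest of all pools for 6 of 13 genes. CLA pool 2 also had the widest spread of values over its whole array (SD 2.43, the other arrays 2.34 to 2.41) and the lowest array median (5.79). The part of this in the level of the cell cycle genes was not tested.

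**Figure D4:**
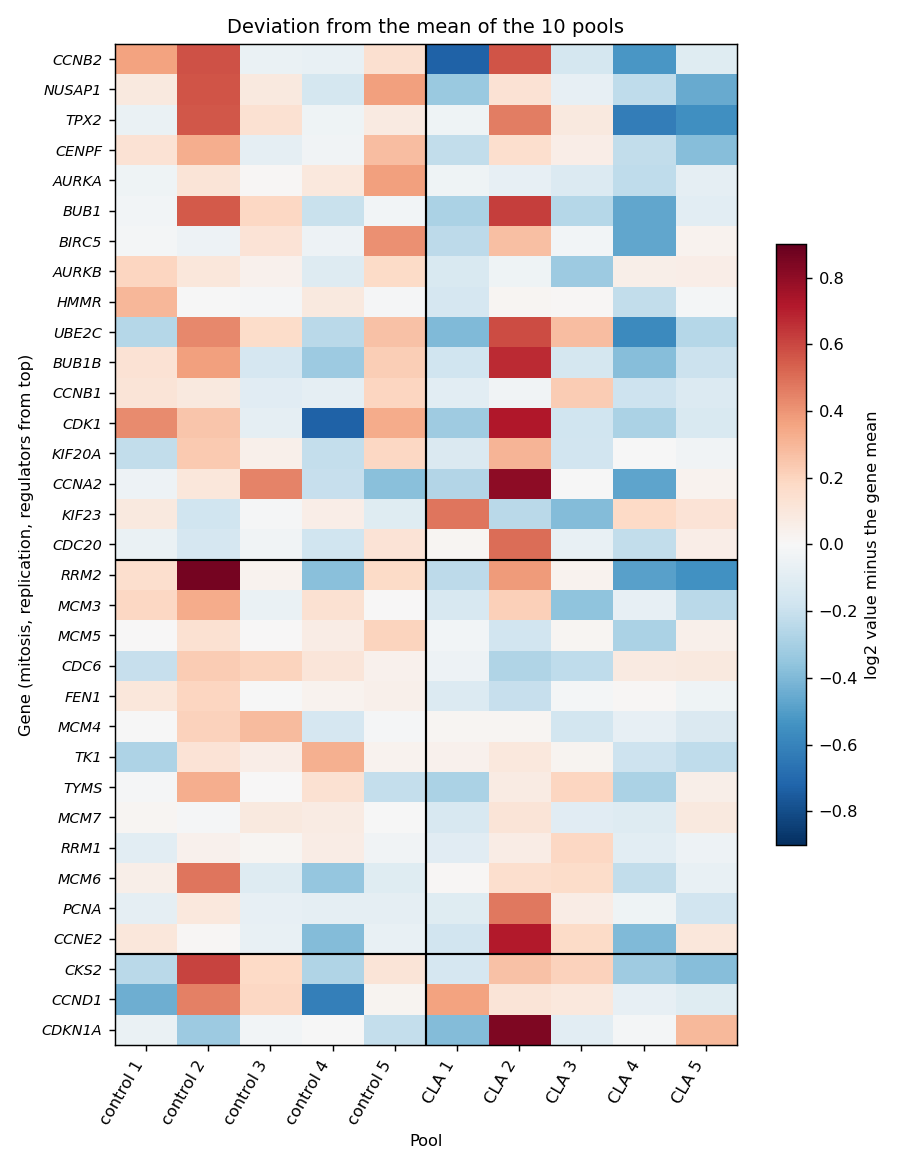
Log2 value minus the mean of the 10 pools, for 33 genes (rows, in order of their difference within mitosis, replication and regulators) and 10 pools (columns). Red marks values above the gene's mean, up to 0.9, and blue values below it; control pools 2 and 5 and CLA pool 2 are above the mean for 13 of 17 mitosis genes each, and CLA pools 1 and 4 for 2 of 17 each.

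Other genes of the pathway, which were not members, were counted in the same way. Of 65 further genes of mitosis 43 were measured, 36 with a difference below 0 (83.7%, beside 55.9% of all probe sets) and 7 above, with a median of -0.10. Of the 43, 14 lay in the dimmest 30%, and in the dimmest of the 3 parts 66.0% of probe sets had a difference below 0. Genes measured in the same pools are not independent, so the counts of this list and the next 2 are descriptions. At an unadjusted p under 0.05, 6 were lower (14.0%, background 4.88%) and 0 higher (background 4.01%), and 0 passed the adjusted test. Those of smallest p were ESPL1, the separase that cuts cohesin (-0.30 ± 0.10 SE, and -0.24 at its second probe set), KNTC1, a kinetochore protein (-0.34 ± 0.11 SE), and NCAPH, a condensin subunit (-0.23 ± 0.09 SE, and -0.22 and -0.01 at its others). For each of these all 5 CLA pools lay below the control mean (limma's adjusted p from 0.418 to 0.525).

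Of 50 further genes of replication 38 were measured, 23 with a difference below 0 (60.5%) and 15 above, with a median of -0.05, and 6 lay in the dimmest 30%. At an unadjusted p under 0.05, 4 were lower (10.5%, background 4.88%) and 1 was higher (2.63%, background 4.01%). UHRF1, which keeps DNA methylation through replication, had control values of 6.02, 6.10, 5.62, 5.78 and 5.67 and CLA values of 5.19, 6.10, 5.19, 4.80 and 5.29. CLA pools 1, 3, 4 and 5 lay below every control pool and CLA pool 2 equalled the highest, at this brightest probe set. The difference was -0.52 ± 0.20 SE (limma's adjusted p = 0.482), and -0.38 ± 0.13 SE at the second probe set. There the pools were ordered otherwise: CLA pool 2 (5.38) lay below every control pool (lowest 5.45), and CLA pool 1 (5.66) was the highest CLA pool. LIG1, the ligase that joins Okazaki fragments, differed by -0.25 ± 0.08 SE, with -0.28 and -0.04 at its other probe sets, and ORC4, a subunit of the origin recognition complex, by 0.29 ± 0.10 SE (limma's adjusted p = 0.433 and 0.418). POLD1, the catalytic subunit of DNA polymerase delta, was the 1 gene of these lists whose groups did not overlap (CLA 6.59 to 6.79, control 6.81 to 6.97), with a difference of -0.15 ± 0.07 SE (limma's adjusted p = 0.553), where 0.791% of all probe sets had such a separation downward. It is named after its values were seen.

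Of 43 further regulators 27 were measured, 16 with a difference below 0 (59.3%) and 11 above, and a median of -0.016, close to that of all probe sets. At an unadjusted p under 0.05, 1 was lower (3.70%, background 4.88%) and 3 were higher (11.1%, background 4.01%). RBL2 (p130), which holds genes of the cycle repressed in resting cells, differed by 0.29 ± 0.09 SE, but its other probe sets differed by 0.09 and -0.17. CDKN2B (p15), an inhibitor of the cyclin D kinases, differed by 0.24 ± 0.09 SE and CCND2, cyclin D2, by -0.28 ± 0.12 SE (limma's adjusted p from 0.413 to 0.523 for the 3 genes).

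**Figure D5:**
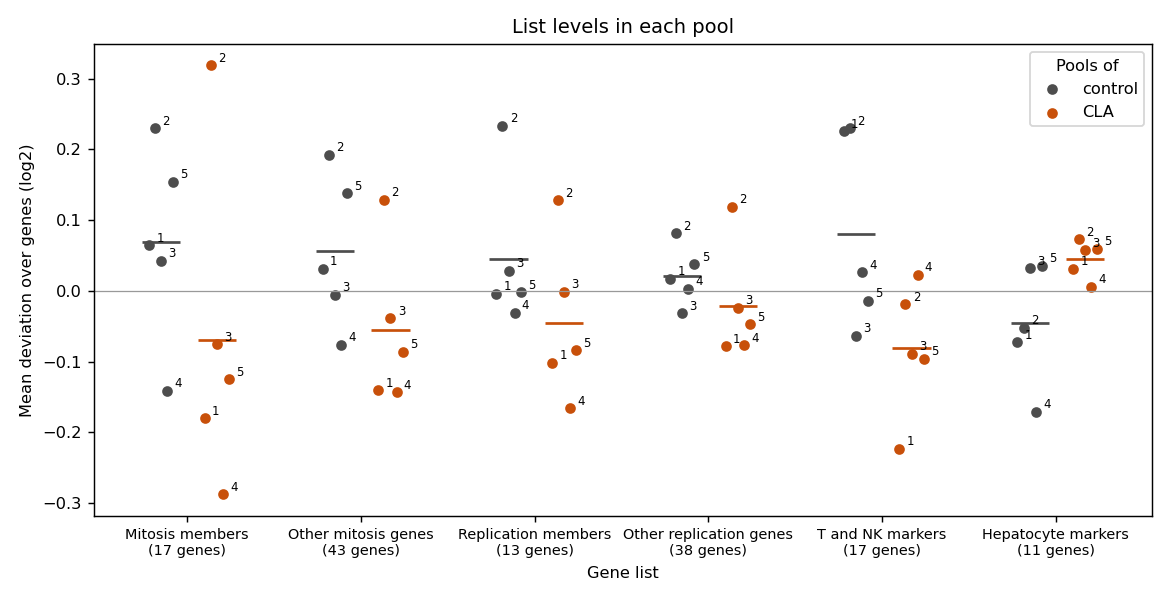
Level of 6 gene lists in each pool, as the mean over genes of the log2 value minus the gene's mean over the 10 pools, with pool numbers beside the points and group means as lines. Control pool 2 and CLA pool 2 lie high for the mitosis and replication lists, and the T and NK markers are high in control pools 1 and 2 but not in CLA pool 2.

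Markers of other cells in the biopsy were set beside these values. Of 17 measured markers of T and NK lymphocytes 15 had a difference below 0, with a median of -0.16, and 2 of 17 (11.8%, background 4.88%) were lower at an unadjusted p under 0.05. In ZAP70, a kinase of T cell receptor signalling, the groups did not overlap (control 6.95 to 7.46, CLA 6.58 to 6.86), with a difference of -0.44 ± 0.11 SE (limma's adjusted p = 0.332, background of such separation 0.791%). Their mean level ran from 5.97 to 6.26 in the control pools and from 5.81 to 6.06 in the CLA pools. Control pools 1 and 2 were highest (0.23 each above the mean of the 10 pools) and CLA pool 1 lowest (-0.22), whereas CLA pool 2, highest for mitosis genes, stood at -0.02 and CLA pool 4, lowest for them, at 0.02. With group means removed, pairs of a mitosis gene with a T or NK marker had a median correlation of 0.13, beside 0.03 over all pairs of genes. The part of lymphocytes in the mitosis values was not tested.

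Of 10 macrophage markers 8 had a difference below 0 (median -0.04, mean level 9.60 to 10.05 in control and 9.67 to 9.92 in CLA pools), and pairs with a mitosis gene had a median correlation of -0.03. Of 5 B and plasma cell markers 3 had a difference below 0 (median -0.01, levels 6.22 to 6.40 and 6.02 to 6.45), with a median correlation of 0.16. Of 7 erythroid markers 6 had a difference below 0 (median -0.06, levels 4.14 to 4.45 and 4.08 to 4.37), and 4 of the 7 lay in the dimmest 30%. HBA lay below every control pool in all CLA pools (background 0.791%), with a difference of -0.24 ± 0.08 SE (limma's adjusted p = 0.418). Its probe set was dim, at brightness percentile 22.6. Endothelial markers had 7 of 11 below 0 (median -0.05), stellate cell markers 3 of 8 (0.03), cholangiocyte markers 2 of 5 (0.09) and skeletal muscle markers 5 of 7 (-0.04). Of 11 hepatocyte markers 2 had a difference below 0 and 9 above, with a median of 0.06. In TF, transferrin, the CLA pools (14.68 to 14.72) lay above the control pools (14.60 to 14.67), with a difference of 0.06 ± 0.06 SE (background of such separation upward 1.18%). At an unadjusted p under 0.05, 1 of 5 B and plasma cell markers (20%) and 1 of 7 erythroid markers (14.3%) were lower (background 4.88%). Higher at that p were 1 of 11 endothelial (9.09%), 1 of 8 stellate cell (12.5%) and 1 of 11 hepatocyte markers (9.09%, background 4.01%). The macrophage, cholangiocyte and muscle lists had 0 in either direction. In lists this short 1 gene makes a large share.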

How the data were processed

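Per the submitters' processing notes, the deposited log2 values (1 per probe set and array, with 2 decimals) were made by the authors with Affymetrix Expression Console 1.1 and RMA, by its general definition a background correction, a normalization between arrays and a summary over each set's probes. Its settings are not stated in the sources at hand, and no further scaling was applied. Of 24128 probe sets, 112 manufacturer controls were left out. The platform annotation gave 13292 of the others 1 gene symbol, 86 several and 10638 none, and all 47 member probe sets matched RefSeq genes (ARS-UCD2.0) by gene identifier, with 0 differing symbols.

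Differences, CLA minus control, were fitted with limma 3.58.1 (lmFit, eBayes; R 4.3.3) over the 10 arrays with no covariate, adjusted by Benjamini-Hochberg over 24016 probe sets and tested on simulated data. A gene stands by its brightest probe set, the one of highest mean over the arrays. Values in every pool are given for the 4 genes of smallest p in each role. From each list of other pathway genes the 3 of smallest p are named. The members, lists and rules were chosen with earlier results of these data known, so they are no independent evidence. The labels do not say how cows were assigned to pools. A p-value sets the difference between groups against the spread between pools of 4 cows, moderated over probe sets by limma, and not against that between single cows. No detection calls were used and 10 arrays limit the precision. Pool values of CDK1, BUB1B, PCNA, CCNE2, TPX2, KIF23, UHRF1 and POLD1, and the markers ZAP70, HBA and TF, are given outside this rule and were chosen after their values were seen. No sequences or coordinates are given.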

Additional observations from a re-analysis of the deposited data

Results flagged for a closer look

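In 3 genes 1 pool stood far from the other 4 of its group, by Dixon's ratio of the gap to the range (critical value 0.71 for 5 pools). CDK1 was 5.78 in CLA pool 2 and 4.74 to 4.92 in the other CLA pools. BUB1B was 5.01 in CLA pool 2 and 3.96 to 4.18 in the others. PCNA was 8.16 in control pool 2 and 7.98 to 7.99 in the other control pools, a gap that is small in size. The mean level of the replication genes was 0.233 in control pool 2 and -0.031 to 0.029 in the other control pools. These are 4 of 92 groups of 5 examined. Chance alone gives about 1 in 20 for independent groups, but these groups share the same arrays and many of the genes vary together. No conclusion about chance is drawn from the number.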

How the results depend on the processing

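Over the alternatives run, the median differences of the mitosis and replication genes kept their sign. The mitosis median lay between -0.29 (without CLA pool 2 and control pool 4) and -0.07 (without CLA pool 4), and was -0.13 after quantile normalization, -0.12 after subtraction of array medians and -0.12 after cyclic loess normalization. The median of the further regulators turned to 0.015 after subtraction of array medians, and was also above 0 without control pool 2 (0.001) and without CLA pool 1 (0.0115). The count of member genes lower at an unadjusted p under 0.05, 2 as reported, was 6 with array weights, 11 without CLA pool 2 and control pool 4, and 1 to 8 with single pools left out. With the pool number as a replicate block it was 5, but the numbers do not pair the pools: deviations of equal numbers correlated at -0.09 to 0.09. The count of member genes higher at an unadjusted p under 0.05, 0 as reported, reached 1 without CLA pool 1. The share of all probe sets lower or higher at that p was not counted under any alternative, so these counts have no background beside them. The whole-array count stayed at 0, except for 1 probe set (CGN1, higher) without CLA pool 2 and control pool 4. That omission and cyclic loess were chosen after seeing the data. Of 792 differences of 42 named genes under 19 alternatives, 33 had another sign than reported, in 9 genes (CDK1, RRM1, KIF20A, MCM6, CCNA2, KIF23, PCNA, CDC20 and CCNE2), none of which had an unadjusted p under 0.05. The 792 include values that could not change. The pool number block, other variance options of eBayes and a filter on dim probe sets leave a difference as it was. So does the mean of probe sets for a gene with 1 probe set. Under the scalings alone, KIF20A and RRM1 changed sign. AURKA was -0.10 as the mean of its probe sets. The causes were not tested.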
